A study of Mus musculus with 4 samples.

Results

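The genes described here are 8 genes of the Notch pathway in mouse double positive (DP) thymocytes: the receptor genes Notch1, Notch2 and Notch3, the DNA-binding cofactor gene Rbpj, and the target genes Hes1, Dtx1, Nrarp and Heyl. They were taken by gene symbol from a table of fragment counts for 24984 genes, and all 8 were found. TTchem-seq, in which RNA made during a short 4-thiouridine pulse is captured and sequenced, measured the transcriptional output of each gene, introns included. The labels describe oligo-dT capture in library preparation and the methods capture of the labelled RNA, so how far the libraries hold unlabelled or polyadenylated RNA was not tested. There were 2 libraries from Tox4 WT thymocytes and 2 from Tox4 cKO thymocytes. The WT cells had the genotype Tox4;F/F, that is, both Tox4 alleles carried loxP sites around exons 4 to 6 and no Cre was listed. The cKO cells had the genotype Tox4;F/F;Lck+. Their Cre is driven by the proximal Lck promoter and, according to the study, deletes Tox4 from the DN3 stage of T cell development onwards, so the gene is lost before the cells become DP. Cre was in the cKO cells alone, so an effect of Cre and one of Tox4 loss cannot be told apart. All cells shared the floxed alleles, a C57BL/6 background and a short culture of 0.5 h before labelling, and the mice were gender-matched littermates of 6 to 8 weeks per the study's methods. Neither the labels nor the methods say from how many mice a TTchem-seq library was made or how DP cells were purified for it, so p-values measure the spread between these libraries, which may be partly technical.

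Notch receptors are single-pass membrane proteins that are cut by furin on their way to the cell surface. When a Delta-like or Jagged ligand on a neighbouring cell binds, a sheddase and then gamma-secretase cut the receptor again, and the freed intracellular domain enters the nucleus, where it joins RBPJ and a mastermind coactivator on the regulatory elements of target genes. In the thymus, Notch1 signalling driven by Dll4 of the epithelium commits progenitors to the T lineage and carries them through the double negative (DN) stages, after which signalling falls as cells become DP.

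Transcriptional output of Notch1 and Notch3 was higher in cKO than in WT. Notch3 rose 2.43-fold and Notch1 1.38-fold, whereas Notch2, Rbpj, Dtx1 and Nrarp did not pass the test and Hes1 and Heyl were too low to be tested at the level required. A gene was called when its mean was at least 1 CPM (the fragments of a gene scaled to a common library total), its fold change at least 1.2 and its DESeq2 p-value, adjusted over the whole table, under 0.05. Of the 8 genes, 6 had a mean of at least 1 CPM, of which 2 were called higher and 0 lower. At an unadjusted p-value under 0.05, DESeq2 gave the same counts, 2 higher and 0 lower, as did the edgeR quasi-likelihood test on genes with a mean of at least 1 CPM, and 13.5% and 15.6% of all 11625 genes passed that unadjusted threshold in either direction. For comparison, 3.71% of the 11625 genes with a mean of at least 1 CPM were called, 2.14% higher and 1.57% lower in cKO. In a sample of a cell population, more cells that transcribe a gene and more output per cell cannot be told apart.

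**Figure D1:**
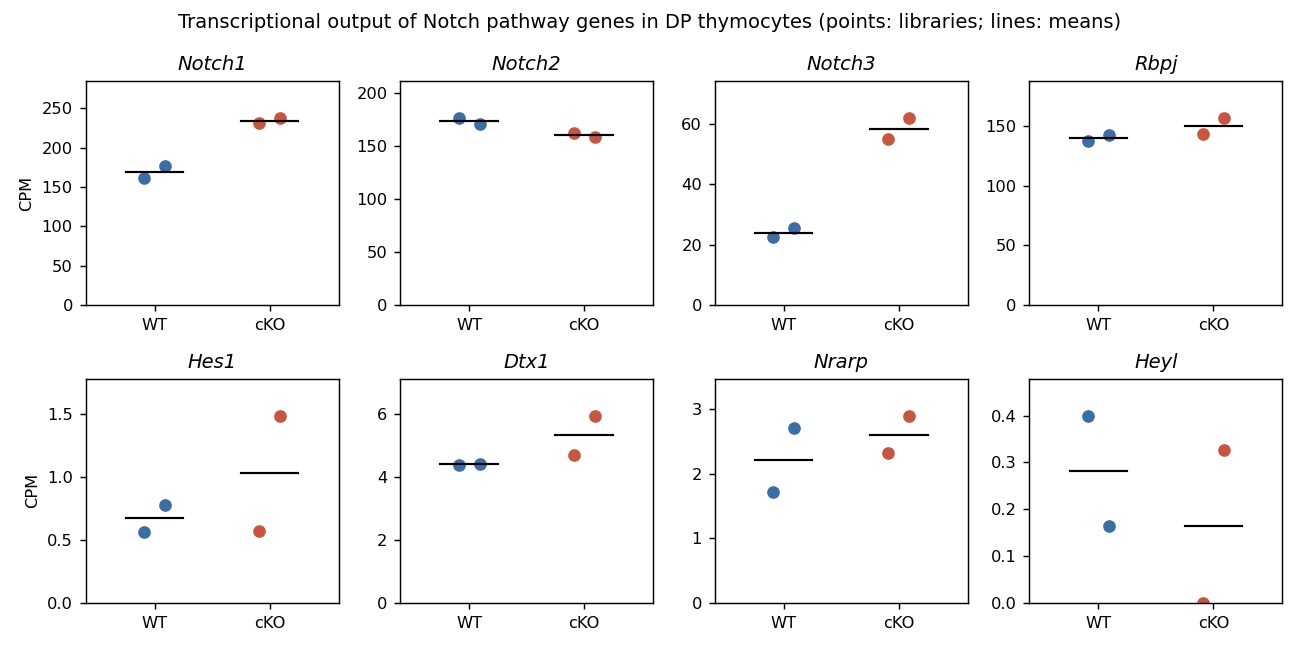
Transcriptional output (CPM, linear axis from 0 in each panel) of the 8 Notch pathway genes in the 2 WT and 2 cKO libraries; points are libraries, in the order replicate 1 and 2, and lines are means. The cKO libraries lie clear of the WT libraries for Notch1 (231 and 237 against 162 and 176 CPM) and Notch3 (55.1 and 61.8 against 22.5 and 25.4 CPM), while those of Hes1, Nrarp and Heyl overlap.

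The 250 bases before the transcription start are shown for Notch1 and Notch3, the genes that were called, and for Rbpj, whose window was the only one among these genes with the core letters bound by RBPJ itself. The Rbpj window precedes a start inside the gene, and no window of the start at the beginning of its span was used here. Sequences are from RefSeq, build GRCm38.p6, written 5′ to 3′ on the strand of the gene. Capitals mark the GC box, GGGCGG or on the other strand CCGCCC, in Notch1 and Notch3, and the RBPJ core, TGGGAA or on the other strand TTCCCA, in Rbpj.

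Notch1, chr2:26503823-26504072, minus strand: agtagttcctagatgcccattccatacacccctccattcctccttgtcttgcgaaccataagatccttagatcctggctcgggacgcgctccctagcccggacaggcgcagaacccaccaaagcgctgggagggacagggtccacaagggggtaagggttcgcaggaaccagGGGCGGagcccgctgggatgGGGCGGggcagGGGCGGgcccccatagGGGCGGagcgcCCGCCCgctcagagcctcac

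Notch3, chr17:32166891-32167140, minus strand: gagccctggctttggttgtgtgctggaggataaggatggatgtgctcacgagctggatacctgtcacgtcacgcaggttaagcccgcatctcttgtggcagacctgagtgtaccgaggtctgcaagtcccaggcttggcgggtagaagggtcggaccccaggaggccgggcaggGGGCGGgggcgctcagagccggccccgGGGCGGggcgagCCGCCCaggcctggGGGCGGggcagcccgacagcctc

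Rbpj, chr5:53590096-53590345, plus strand: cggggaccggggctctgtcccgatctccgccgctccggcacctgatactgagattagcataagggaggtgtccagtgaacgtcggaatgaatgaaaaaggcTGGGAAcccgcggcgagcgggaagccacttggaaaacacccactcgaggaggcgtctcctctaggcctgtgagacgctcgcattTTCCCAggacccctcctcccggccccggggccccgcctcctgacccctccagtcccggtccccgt

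The Notch1 window held 5 GC boxes, all within 78 bases of the start, and the Notch3 window held 4 within 76 bases. GC content was 66.0% and 68.8% in these windows. The GC box was found in 32.7% of 32851 promoter windows of the same length in the mouse table. It was also found 5 times for Notch2, 3 times for Dtx1 and 2 times for Nrarp, so its presence did not set the called genes apart from the others. The RBPJ core was found in 21.6% of all windows. Among the 6 genes with a window in the table it occurred in that of Rbpj alone, at 149 and 65 bases before the start. A second start of Rbpj had a window that overlaps the first and held the site nearer the start once more, at 205 bases. The TATA box letters TATAAA, present in 12.4% of all windows, were found in none of these windows. Windows of Hes1 and Heyl were not used here. A match of letters is a description and not a bound site, and no match says only that the letters are not in this window.

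Before the genes themselves, the libraries were compared. They held 38429786 to 48690591 fragments, so that 3 fragments, the limit that a count of 0 allows, stood for 0.0616 to 0.0781 CPM (counting error only). Tox4 was at 74.0 and 70.3 CPM in WT and at 59.3 and 57.2 CPM in cKO, counted over the whole gene and not the deleted exons. WT replicate 1 stood apart from the other 3 libraries. Its output of Xist, the RNA that coats the inactive X chromosome, was 172 CPM against at most 2.36 CPM elsewhere, which goes against the stated matching of gender for this library, and its cell cycle genes were lower, with Top2a at 45.9 CPM against 78.2 CPM in the other WT library and 99.1 and 79.4 CPM in cKO. The DP label held for the markers of the stage: all 10 listed DP markers had a mean of at least 1 CPM, with summed output of 5709 to 6339 CPM in WT and 5757 to 6194 CPM in cKO. Of these 10, Cd8a and Rag1 were called lower, Rag1 at the edge of the threshold (adjusted p = 0.0499, DESeq2), and neither passed in the edgeR test on genes with a mean of at least 1 CPM (adjusted p = 0.0887 and 0.254).

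Notch3 encodes a receptor that is expressed in immature thymocytes. The gene lies at chr17:32120820-32166890 on the minus strand, has 33 exons, and exons make up 17.5% of its length, so most of the counted span was intron. Output was 22.5 and 25.4 CPM in the WT libraries and 55.1 and 61.8 CPM in the cKO libraries. Each cKO library was higher than either WT library, and the gap between genotypes was far wider than the gap within either. The means were 24.0 ± 2.09 CPM in WT and 58.4 ± 4.77 CPM in cKO (SD, n = 2). On the log2 scale cKO exceeded WT by 1.28 ± 0.127 (SE; adjusted p = 1.71e-20, DESeq2). The 95% interval of the fold change was 2.05 to 2.89. Among the 249 genes called higher in cKO, Notch3 ranked 14 by fold change and 5 by adjusted p-value. With WT replicate 1 left out, the difference was 1.19, with a DESeq2 adjusted p-value of 2.62e-10.

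Notch1 encodes the receptor that T lineage commitment depends on. It lies at chr2:26457902-26503822 on the minus strand, with 34 exons that make up 20.7% of its length. The microRNA gene Mir6996 lies inside it on the same strand, and 0610009E02Rik overlaps it on the other strand. Output was 162 and 176 CPM in the WT libraries and 231 and 237 CPM in the cKO libraries. Again both cKO libraries were above both WT libraries, and the cKO pair was the tighter of the 2. The means were 169 ± 10.3 CPM and 234 ± 4.27 CPM (SD, n = 2), a rise of 0.47 ± 0.0831 (SE) on the log2 scale at a DESeq2 adjusted p-value of 3.59e-06. The 95% interval of the fold change was 1.24 to 1.55, which does not meet that of Notch3. By fold change Notch1 ranked 155 of the 249 genes called higher, and by adjusted p-value 43. With WT replicate 1 left out, the difference was 0.40 on the log2 scale (DESeq2 adjusted p-value 0.00733), but without cKO replicate 2 the call was lost at almost the same size, 0.44 (DESeq2 adjusted p-value 0.0615).

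Notch2, the third receptor gene transcribed here, is needed for marginal zone B cells and has the longest span of the 8 genes, 136830 bp at chr3:98013538-98150367 on the plus strand. Output was 176 and 171 CPM in WT and 163 and 159 CPM in cKO. Both cKO libraries lay slightly below both WT libraries, opposite to the other receptor genes. The change was -0.12 ± 0.0794 (SE) on the log2 scale, with a 95% interval from -0.27 to 0.04 and a DESeq2 adjusted p-value of 0.573, which leaves both a modest fall and no change possible. Such separation by itself is common: in 24.9% of the 11625 genes each cKO library was above either WT library, and in 24.0% each was below.

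**Figure D2:**
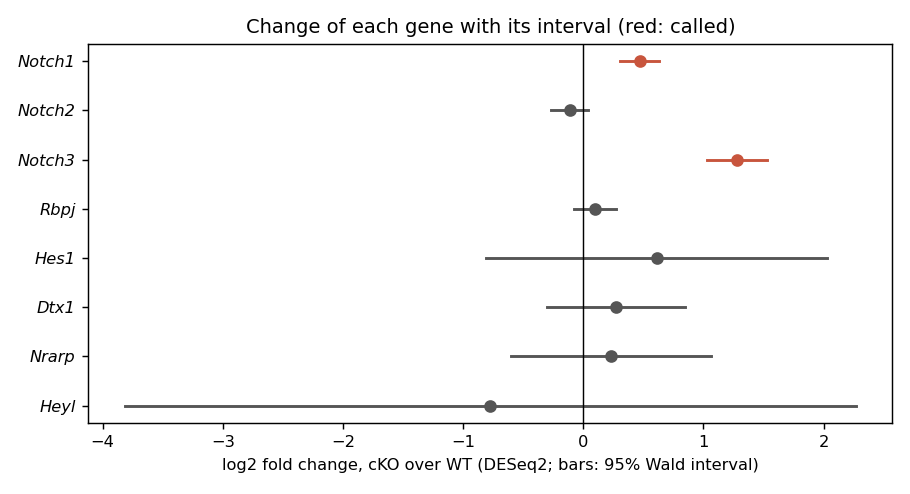
Log2 fold change of each of the 8 genes, cKO over WT (x axis), with bars for the 95% Wald interval of the DESeq2 fit; genes called are red. The intervals of Notch3 (1.03 to 1.53) and Notch1 (0.31 to 0.63) lie above 0, those of Notch2 and Rbpj are narrow and include 0, and those of Hes1 and Heyl span several log2 units.

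Rbpj encodes the protein through which all Notch receptors act on DNA. The gene is at chr5:53555779-53657445 on the plus strand, and its 5 curated transcripts begin at 3 start sites. Output was 137 and 142 CPM in WT and 143 and 156 CPM in cKO. The cKO libraries were above the WT libraries, but cKO replicate 1 exceeded WT replicate 2 by little. The change was 0.10 ± 0.0877 (SE) on the log2 scale, with a 95% interval from -0.07 to 0.27 (adjusted p = 0.719, DESeq2), less than the difference of 0.13 between the cKO libraries.

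The target genes of the pathway drew few fragments in all libraries. Dtx1 (chr5:120680264-120711669, minus strand), which encodes a ubiquitin ligase that binds Notch and is a Notch target in T cells, was at 4.39 and 4.42 CPM in WT and at 4.71 and 5.94 CPM in cKO, from 181 to 236 fragments per library. The cKO libraries were both higher, and cKO replicate 2 stood out from the other 3 libraries. The change was 0.27 ± 0.292 (SE) on the log2 scale, with a 95% interval from -0.30 to 0.84 (adjusted p = 0.780, DESeq2).

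Nrarp (chr2:25180758-25183332, plus strand) encodes an ankyrin repeat protein that binds the Notch transcription complex and promotes loss of the intracellular domain, which makes it a feedback inhibitor. It was counted at 1.71 and 2.71 CPM in WT and at 2.32 and 2.89 CPM in cKO, from 73 to 132 fragments. The genotypes overlapped, and WT replicate 1 was the lowest library. The change was 0.23 ± 0.425 (SE) on the log2 scale, with a 95% interval from -0.60 to 1.06 (adjusted p = 0.889, DESeq2).

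Hes1 (chr16:30065357-30067796, plus strand), a transcriptional repressor and the most widely used Notch target gene, was at 0.563 and 0.780 CPM in WT and at 0.573 and 1.48 CPM in cKO, from 24, 38, 22 and 59 fragments. Only cKO replicate 2 was higher than the WT libraries. The change was 0.61 ± 0.724 (SE) on the log2 scale, with a 95% interval from -0.81 to 2.03, and DESeq2 gave no adjusted p-value at this level. Heyl (chr4:123233556-123249870, plus strand), another repressor of the same family, was at 0.399 and 0.164 CPM in WT, at 0 CPM in cKO replicate 1 and at 0.327 CPM in cKO replicate 2, from at most 17 fragments. Its interval, -3.82 to 2.27 on the log2 scale, allows large changes in either direction, so no difference was detectable at this depth. For the 4 target genes together, the intervals leave room for a change as large as that of Notch1 in each of them.

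To compare levels between genes, CPM were divided by gene length in kb. In WT, the mean level per kb fell in the order Notch1 (3.68 ± 0.225 CPM per kb), Rbpj (1.37 ± 0.0324), Notch2 (1.27 ± 0.0286), Nrarp (0.859 ± 0.274), Notch3 (0.520 ± 0.0453), Hes1 (0.275 ± 0.0630), Dtx1 (0.140 ± 0.000646) and Heyl (0.0173 ± 0.0102; SD, n = 2). The ranges of all neighbours in this order were separate. Of the 11625 genes, 78.1% were below Notch1 on this scale, 48.6% below Rbpj, 46.2% below Notch2, 26.6% below Notch3 and 17.6% below Hes1. In cKO, Notch1 (5.10 ± 0.0930 CPM per kb) and Rbpj (1.47 ± 0.0914) kept their places. Notch3 came next at 1.27 ± 0.104 CPM per kb, ahead of Notch2 (1.17 ± 0.0210) and Nrarp (1.01 ± 0.158). In cKO replicate 1 the levels of Notch3 and Notch2 were nearly equal, 1.195 and 1.19 CPM per kb, and the difference between their cKO means was smaller than the spread of Notch3. That between Notch2 and Nrarp was about as large as the spread of Nrarp. The last 3 places went to the same genes as in WT.

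Notch3 took a larger share of receptor gene output in cKO. Within each library, the level of Notch3 per kb was 0.379 and 0.442 of that of Notch2 in WT, and 1.01 and 1.16 of it in cKO. Against Notch1 it was 0.139 and 0.144 in WT and 0.238 and 0.260 in cKO. Both ratios were higher in each cKO library than in either WT library. Notch3 made up 9.22% and 9.80% of the summed level per kb of the 3 receptor genes in WT and 16.1% and 17.5% in cKO. The share of Notch2 was 24.4% and 22.2% in WT and 16.0% and 15.1% in cKO, and that of Notch1 was 66.4% and 68.1% in WT and 67.9% and 67.4% in cKO. The sum itself was 5.30 and 5.64 CPM per kb in WT and 7.41 and 7.66 CPM per kb in cKO. These shares restate the values of the single genes and were not tested.

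**Figure D3:**
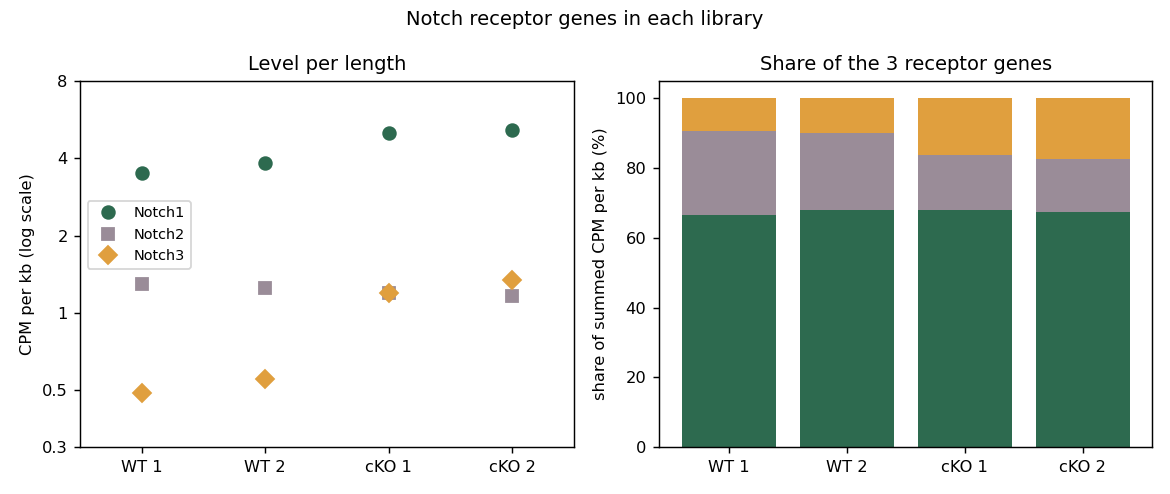
Left, level of the receptor genes in each library, in CPM per kb on a log axis; right, share (%) of each in the summed CPM per kb of Notch1, Notch2 and Notch3, with the same colours. Notch3 lies well under Notch2 in the WT libraries (ratios of 0.379 and 0.442) and level with it or above it in the cKO libraries (1.01 and 1.16).

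**Figure D4:**
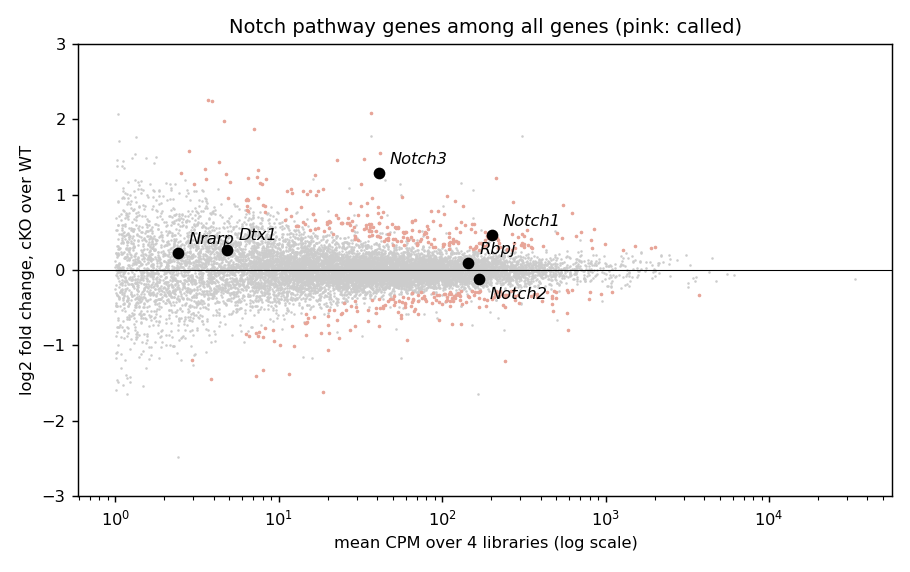
Log2 fold change, cKO over WT, against mean CPM over the 4 libraries (log axis) for the 11625 genes with a mean of at least 1 CPM; genes called are pink, the 6 Notch pathway genes at this level are black, and 2 genes lie outside the plotted range. Notch3 and Notch1 lie at the upper edge of the cloud at their levels, and Notch2, Rbpj, Dtx1 and Nrarp lie within it.

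Since Notch signalling marks DN cells, genes of that stage and of other cells were examined beside these values. Of 8 DN markers, which share Il2ra with the pathway genes described further on, 5 had a mean of at least 1 CPM and 0 were called by DESeq2, and their summed output was 64.6 to 72.9 CPM in WT and 67.0 to 71.1 CPM in cKO, ranges that overlap. Kit was at 13.5 and 11.9 CPM in WT and 9.81 and 11.2 CPM in cKO. Cd44, the largest part of that sum, was at 35.75 and 29.1 CPM in WT and 35.75 and 37.0 CPM in cKO. The log2 fold changes of the 5 were -0.64 for Bcl11a, -0.27 for Kit, -0.02 for Il2ra, 0.16 for Cd44 and 0.27 for Erg, so the list did not move one way. Below that level, Spi1, a factor of early progenitors and myeloid cells, was at 1.10 and 1.05 CPM in WT and 0.260 and 0.402 CPM in cKO, lower in both cKO libraries, and DESeq2 gave it no adjusted p-value. Hhex and Lyl1 were at most at 0.468 CPM. Among markers of mature single positive cells, Il7r was called higher and Ccr7 lower, and this list is not reported in full here. Markers of the thymic epithelium and stroma summed to 0.729 to 1.38 CPM over all libraries, with Psmb11 at 0 in each. Of 6 B cell markers, 3 had a mean of at least 1 CPM and the sum was 12.7 to 13.8 CPM in WT and 12.2 to 14.3 CPM in cKO. The 6 myeloid markers summed to 9.45 to 12.3 CPM in WT and 11.5 to 11.9 CPM in cKO, most of it from Cd68, at 7.67 and 5.50 CPM in WT and 9.21 and 7.52 CPM in cKO. Lyz2 (1.34 and 1.21 CPM in WT, 0.312 and 0.679 CPM in cKO) and Csf1r (0.891 and 0.534 CPM in WT, 0.156 and 0.327 CPM in cKO) were lower in both cKO libraries, at levels where DESeq2 gave no adjusted p-value. Itgam, of the same list, was higher in both cKO libraries, also without an adjusted p-value from DESeq2. It was at 1.06 and 1.07 CPM in WT and 1.51 and 1.53 CPM in cKO. The part of myeloid and other such cells in the results was not tested. The 5 erythroid markers summed to at most 0.478 CPM. Of 4 endothelial markers, Pecam1 took nearly all of the 360.1 to 416.4 CPM, with Kdr, Cdh5 and Tek at most at 0.375 CPM.

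The other genes of the pathway were mostly without a call. Of 64 listed genes, 54 had a mean of at least 1 CPM, and 3 were called higher and 3 lower, or 11.1% of the 54 beside the 3.71% of all genes. Over the 54 genes the log2 fold change had a median of -0.02, against 0.00 over all 11625 genes. The calls depended on the test: in the edgeR quasi-likelihood test on genes with a mean of at least 1 CPM, a setting chosen after the data were seen, which called 0.654% of all genes, Notch1 (adjusted p-value 0.0389) and Notch3 (0.00813) passed and 0 of the 54 did, although 5 were higher and 6 lower at an unadjusted p-value under 0.05. With DESeq2, 4 were higher and 4 lower at that unadjusted level, or 14.8% of the 54 beside 13.5% of all genes, and with edgeR the shares were 20.4% and 15.6%. The edgeR test on all genes of the table, without that filter, called the same 6 genes as DESeq2. Without WT replicate 1, 0 of the 54 were called by DESeq2.

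Of the 6 ligand genes, only Jag2 was above 1 CPM, at 5.74 and 5.10 CPM in WT and 8.01 and 6.38 CPM in cKO (DESeq2 adjusted p-value 0.522). The fourth receptor gene, Notch4, was at 0.981 to 1.52 CPM over all libraries. Ligands in the thymus are mainly made by the stroma, whose markers were near 0 here. A link between this and the low ligand levels was not tested.

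Among 10 genes of receptor cleavage, 9 could be examined and Furin, the protease that cuts the receptors before they reach the surface, was called lower. Its output was 92.1 and 86.6 CPM in WT and 70.2 and 66.7 CPM in cKO, both cKO libraries lying below both WT libraries, and the change was -0.39 ± 0.0959 (SE) on the log2 scale (adjusted p = 0.00299, DESeq2). Psenen, a gamma-secretase subunit, was at 12.0 and 14.4 CPM in WT and 10.5 and 12.4 CPM in cKO, and the genotypes overlapped (DESeq2 adjusted p-value 0.741).

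None of the 5 glycosylation genes was called by DESeq2. Lfng, a Fringe glycosyltransferase that changes which ligands a Notch receptor responds to, was at 61.7 and 58.8 CPM in WT and 52.1 and 44.8 CPM in cKO. Both cKO libraries were lower, but its log2 fold change of -0.32 (95% interval -0.54 to -0.09) had a DESeq2 adjusted p-value of 0.0968. Its relative Mfng was at 47.4 and 42.5 CPM in WT and 48.9 and 41.7 CPM in cKO, almost the same in both genotypes. Of the 11 genes of receptor trafficking and turnover, 10 could be examined and 0 were called. The Deltex genes with the highest level per kb in this group, Dtx2 and Dtx3l, had log2 fold changes of -0.15 and -0.09 (DESeq2 adjusted p-values 0.464 and 0.838).

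In the nucleus, 1 of 7 coactivators and 1 of 10 corepressors were called. Maml3, a mastermind coactivator, was at 231 and 224 CPM in WT and at 273 and 276 CPM in cKO (change of 0.27 ± 0.0744 on the log2 scale, SE; adjusted p = 0.0123, DESeq2). Its relative Maml1 was at 256 and 257 CPM in WT and 243 and 239 CPM in cKO and was not called (DESeq2 adjusted p-value 0.652). The acetyltransferase gene Crebbp had a log2 fold change of -0.03 (DESeq2 adjusted p-value 0.934). L3mbtl3, whose protein binds RBPJ and represses its targets, was at 135 and 152 CPM in WT and at 177 and 175 CPM in cKO (change of 0.29 ± 0.0892 on the log2 scale, SE; adjusted p = 0.0282, DESeq2). The corepressors with the highest level per kb, Ctbp1 and Tle3, had log2 fold changes of -0.15 and -0.10 (DESeq2 adjusted p-values 0.358 and 0.728).

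Of 14 further genes known as targets of Notch in the T lineage, 11 had a mean of at least 1 CPM. Myc, the growth regulator, was called higher, at 6.63 and 9.51 CPM in WT and at 14.8 and 13.6 CPM in cKO (change of 0.81 ± 0.223 on the log2 scale, SE; adjusted p = 0.0103, DESeq2). Igf1r and Tcf7 were called lower. Igf1r, a growth factor receptor, was at 809 and 689 CPM in WT and at 493 and 372 CPM in cKO (change of -0.80 ± 0.231 on the log2 scale, SE; adjusted p = 0.0183, DESeq2), with a wide gap within each genotype. Tcf7, which encodes the T lineage factor TCF1, was at 4019 and 4236 CPM in WT and 3679 and 2919 CPM in cKO (change of -0.33 ± 0.0943 on the log2 scale, SE; adjusted p = 0.0174, DESeq2), and cKO replicate 2 was the lowest by far. With cKO replicate 2 left out, the change of Tcf7 was -0.17 and not called (adjusted p = 0.910, DESeq2), and with cKO replicate 1 left out it was -0.49. Bcl11b, another commitment factor, was at 2818 and 2962 CPM in WT and 3494 and 3178 CPM in cKO (log2 fold change 0.20; DESeq2 adjusted p-value 0.0955). The called targets thus lay on both sides.

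Ptcra and Il2ra, direct Notch targets of the DN stage, were looked at after their values were known. Ptcra, the pre-T cell receptor chain, was at 5.63 and 7.25 CPM in WT and 5.85 and 6.82 CPM in cKO, and Il2ra was at 13.7 and 15.0 CPM in WT and 13.6 and 14.8 CPM in cKO. For both, the genotypes overlapped and the log2 fold changes were -0.03 (95% interval -0.55 to 0.49) and -0.02 (95% interval -0.37 to 0.33).

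**Figure D5:**
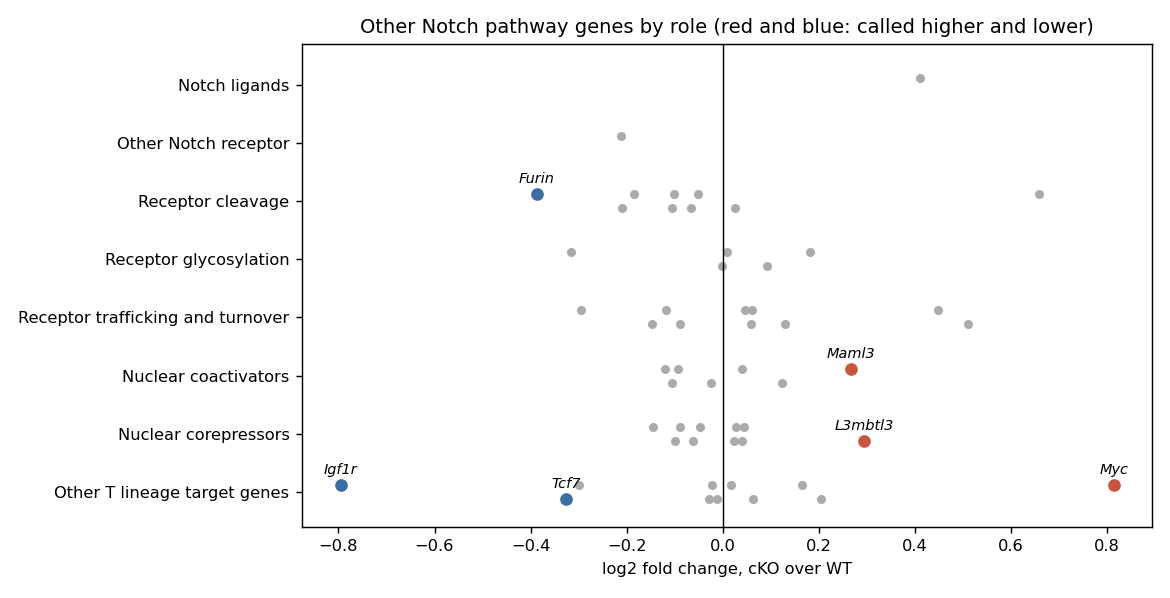
Log2 fold change, cKO over WT, of the 54 other pathway genes with a mean of at least 1 CPM, by role (rows; small vertical offsets keep points apart); red and blue points were called higher and lower. The 3 genes called higher (Maml3, L3mbtl3, Myc) and the 3 called lower (Furin, Tcf7, Igf1r) come from 4 roles, and most other genes lie near 0.

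The genes whose pattern over the 4 libraries lay nearest to each called receptor gene were found by the distance between log2 CPM centred on each gene's mean, a description of 4 values that says nothing of shared function. For Notch1 the nearest of 11625 genes were Fam173a (distance 0.0223), Fkbp5 (0.0388) and Pole2 (0.0442). Fkbp5, a glucocorticoid-responsive immunophilin gene, was at 257 and 282 CPM in WT and 370 and 367 CPM in cKO. For Notch3 they were Ccdc18 (distance 0.124), Pkd1l3 (0.144) and Cdc20b (0.156). Ccdc18 was at 4.01 and 4.48 CPM in WT and 9.50 and 11.95 CPM in cKO.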

How the data were processed

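TTchem-seq libraries of DP thymocytes, 2 WT and 2 cKO, were grouped by sample title. Per the labels and methods, the authors filtered reads with fastp 0.13.1, aligned them with STAR 2.7.9a to mm10 (GRCm38) and counted them over RefGene genes; featureCounts 1.6.1 is also named in the processing notes. The authors deposited expected counts per gene over the whole transcribed span, introns included, with 8.61% of the values fractional for a reason the sources used here do not give. Duplicate reads were marked per the methods, and whether they were counted is not given in the sources used here. Per the methods, labelled yeast RNA was added to every sample as a spike-in, but scaling by it was not applied. All differences given here are therefore relative to the other genes, and a global change of output would not be seen.

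Expected counts were rounded to whole numbers for the tests. CPM were computed from library totals of 38429786 to 48690591 fragments. Intervals and floors based on fragments cover counting error only. All 24984 genes were fitted with the DESeq2 1.42.0 Wald test in R 4.3.3 (default size factors, no covariates, unshrunken fold changes), with Benjamini-Hochberg adjustment. Calls required a mean CPM of 1 or more, a fold change of 1.2 or more and an adjusted p-value under 0.05. Alternatives were the edgeR 4.0.16 quasi-likelihood test, limma 3.58.1 voom, other size factors and filters, the replicate number as a block, and each library left out in turn. Deviations from genotype means of same-numbered libraries correlated at -0.03 over 11625 genes. With 2 libraries per genotype, of which WT replicate 1 stood apart, this value cannot settle whether replicate numbers pair the libraries. The single gene Rn45s, a ribosomal RNA precursor, followed the replicate number. It was at 27121 and 43049 CPM in WT and at 24415 and 40460 CPM in cKO.

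Named were the 8 genes, Tox4, the called genes and the 2 with the highest CPM per kb of each pathway role, and the 3 genes nearest to each called gene (log2 of CPM plus 0.01). The 8 genes and all lists were chosen with earlier results of these data known. Some items are not reported here. Promoter windows and gene models came from RefSeq GRCm38.p6, 6 of 8 genes having a window. Figures used Python 3.11.15 and matplotlib 3.10.9.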

Additional observations from a re-analysis of the deposited data

How the results depend on the processing

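Notch3 was called in every fit run, with log2 fold changes from 1.19 to 1.38, and Notch1 in every fit except that without cKO replicate 2 (0.44 there, 0.40 to 0.54 over the fits that left out a library). Over the fits with all 4 libraries, the adjusted p-value of Notch1 ranged from 5.66e-08 to 0.0389. Without 1 library, 1 to 2 of the 8 genes were called higher. The sign of Nrarp turned without WT replicate 1 (range over the left-out libraries -0.069 to 0.61), that of Heyl without cKO replicate 1 (0.23; range -5.88 to 0.23) and that of Hes1 without cKO replicate 2 (range -0.24 to 1.15), none of them called. The numbers of all genes called higher and lower were 249 and 182, but 494 and 344 with edgeR on all genes, 59 and 17 with edgeR on genes with a mean of at least 1 CPM (chosen after the data were seen), 64 and 22 with limma voom, 61 to 320 and 28 to 126 without 1 library. Of the other pathway genes, 0 were called higher with limma voom and with edgeR on genes with a mean of at least 1 CPM, and 1 (Igf1r) and 0 lower. Without 1 library, 0 to 2 were called higher and 0 to 2 lower, and 0 in either direction without WT replicate 1. With 1 library left out, the lone library was assumed to vary like the other genotype. With the replicate block, the numbers of all genes were 121 and 72 with DESeq2 and 104 and 53 with edgeR, and those of the pathway 0 higher and 1 lower with both, while Notch1 and Notch3 stayed called. The cause of these differences was not tested. Without division by length, the order of levels in WT was Notch2 (rank 1), Notch1 (2), Rbpj (3), Notch3 (4), Dtx1 (5), Nrarp (6), Hes1 (7) and Heyl (8). Depth limits Hes1 and Heyl, with at most 59 fragments in a library, and 2 libraries per genotype limit every comparison.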

Other observations

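Genes near Notch1 and Notch3 were looked at after their values were seen. Only genes with a mean of at least 1 CPM that did not overlap the receptor gene were considered. Among the nearest genes reported here, Rrp1b, a nucleolar protein gene 57958 bp from Notch3, was at 12.9 and 14.2 CPM in WT and at 19.65 and 19.9 CPM in cKO (change of 0.54 ± 0.165 on the log2 scale, SE; adjusted p = 0.0279, DESeq2). Hsf2bp, 86312 bp away on the same side, was at 0.727 and 1.13 CPM in WT and at 2.26 and 3.02 CPM in cKO, a level at which DESeq2 gave no adjusted p-value. On the other side of Notch3, Ephx3 at 16880 bp had a log2 fold change of -0.22 (DESeq2 adjusted p-value 0.901). Around Notch1, the log2 fold changes of Sec16a, Inpp5e, Agpat2 and Snhg7 were -0.00, -0.18, -0.48 and -0.17, and none was called by DESeq2.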
